A study of Mus musculus with 8 samples.

Results

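The tissue inhibitors of metalloproteinases (Timps) and the matrix metalloproteinases (Mmps) were described as a set of 10 genes, the inhibitors Timp1, Timp2, Timp3 and Timp4 and the proteases Mmp2, Mmp3, Mmp9, Mmp11, Mmp14 and Mmp15. Members were all probe sets to which the platform annotation gave one of these symbols and no other, which were 22 of the 45101 probe sets on each array and covered 9 of the 10 genes. Timp2 had 6 probe sets, Timp3 had 4, Mmp14 had 3, Timp4, Mmp2 and Mmp9 had 2 each, and Timp1, Mmp3 and Mmp11 had 1 each. No probe set was named Mmp15 in the annotation used here, and that gene was not analysed here. Where a gene had several probe sets, the brightest on average stood for it, and 8 genes passed the filter on low signals, a mean log2 value of at least 3.83. Mmp9 did not pass and has no call, and its test with no filter is given beside its signals.

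Total RNA labelled as mouse cerebral cortex was measured on 8 arrays in 4 groups of 2 samples, in a study whose title names the astroglial programme elicited by fibroblast growth factor-2 (FGF2). The groups were FGF2 with SB202190, an inhibitor of p38 kinases, FGF2 with U0126, an inhibitor of the MEK kinases that activate ERK, FGF2 alone, and a vehicle control. Both inhibitor groups also received FGF2, and none of the 4 groups held an inhibitor alone. The labels used here give no strain, age, dose or duration and do not say whether cells were cultured. Nothing in the labels tied replicates to separate cultures or animals. The p-values therefore measure only how far these samples lie apart, which may be technical, and 2 arrays a group limit the precision. For FGF2 with SB202190, the type of treatment given for replicate 2 differed from that of all other samples, while its agents matched replicate 1.

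Signals are the deposited values on a linear scale, and the median signal of an array lay between 22.3 and 27.8. All 10 astrocyte markers passed the filter, and the filament gene Gfap had signals of 1778 to 3237. The label was cortex, and of 10 neuronal markers 6 passed, with 382.1 to 583.3 for Map2, 50.4 to 169.8 for Tubb3 and 26.2 to 58.6 for Nefm. Snap25, Rbfox3, Nefl and Slc17a7 did not pass, with 2.25 to 14.2 for the synaptic gene Snap25 and 2.09 to 19.7 for the glutamate transporter Slc17a7. Of 12 microglial markers 5 passed, with 112.8 to 305.9 for Cd68, 20.4 to 66.1 for C1qb and 22.6 to 56.8 for Tmem119, while P2ry12 (2.09 to 20.6) and the leukocyte gene Ptprc (0.75 to 4.24) were among the 7 that did not. The correlation over the 13174 genes tested was 0.980 to 0.984 between replicates and 0.947 to 0.981 across groups.

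Mmps are zinc-dependent endopeptidases that cut collagens, laminins, proteoglycans and other proteins outside the cell, and most are secreted as inactive precursors. Timps bind the active site of these enzymes and block them, and Timp2 also bridges the precursor of Mmp2 to the membrane protease Mmp14, which activates it. In the injured brain, reactive astrocytes are a known source of Timp1. Many promoters of this family are known to carry sites for AP-1, a Fos and Jun dimer, and for ETS factors, both of which lie downstream of ERK.

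Timp1, Mmp3 and Timp4 rose with FGF2 and were lower when U0126 was added, as given below. The promoters of Timp1 and Mmp3 are shown here, and that of Timp4 is described after them. Each window is 300 bases of mouse RefSeq build GRCm38.p6, 250 bases before and 50 after the annotated start, read 5′ to 3′ on the gene's strand. Of the 10 members 8 had a window in the table of promoters, all but Mmp2 and Mmp9. Capitals mark matches to TGAGTCA (the AP-1 consensus), TGAGTAA (a variant of it) and AGGAAG (an ETS site of the PEA3 type), searched on both strands. These motifs were chosen after the values were known, and they do not overlap each other in these windows.
Timp1, chrX:20869916-20870215, plus strand: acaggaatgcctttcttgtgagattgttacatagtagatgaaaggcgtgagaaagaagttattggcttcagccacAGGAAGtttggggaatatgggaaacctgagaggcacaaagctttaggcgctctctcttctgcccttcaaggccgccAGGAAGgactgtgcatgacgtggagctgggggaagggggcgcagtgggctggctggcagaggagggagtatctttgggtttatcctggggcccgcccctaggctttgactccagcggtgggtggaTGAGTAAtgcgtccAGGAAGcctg
Mmp3, chr9:7445572-7445871, plus strand: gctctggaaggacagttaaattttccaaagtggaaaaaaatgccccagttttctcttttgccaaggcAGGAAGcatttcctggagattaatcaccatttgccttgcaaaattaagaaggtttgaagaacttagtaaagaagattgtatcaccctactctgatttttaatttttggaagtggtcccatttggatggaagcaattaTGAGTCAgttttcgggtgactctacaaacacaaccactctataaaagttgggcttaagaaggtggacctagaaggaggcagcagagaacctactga

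The Timp1 window held TGAGTAA with its first base at +27, counted from the annotated start as +1, and AGGAAG at -175, -99 and +41. The Mmp3 window held TGAGTCA at -46 and AGGAAG at -183. Of all 32851 promoter windows 5.2% held TGAGTCA on either strand, 2.68% held TGAGTAA, 7.65% held either AP-1 form and 35.4% held AGGAAG. No window of Timp2, Timp3, Timp4, Mmp11, Mmp14 or Mmp15 held either form of the AP-1 motif, while those of Timp3, Timp4 and Mmp14 held AGGAAG once each. Timp4 was called in the same directions as Timp1 and Mmp3 with FGF2 and with U0126. Its window held no AP-1 motif, like most windows of all genes. Its U0126 call was lost under several alternatives, as given below. Any part of these motifs in the calls was not tested. A match is a description of the letters and not evidence of binding.

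FGF2 was first set against vehicle to see which members respond to the growth factor. Timp1, Timp4 and Mmp3 rose with FGF2, while Timp2, Timp3, Mmp2 and Mmp11 fell and Mmp14 was not called. This made 3 higher and 4 lower of 8 members tested, where 18.9% of all genes tested were called higher and 19% lower. The median log2 change of the members was -0.32, beside -0.00395 over all genes. With each array centred on its median in place of quantile normalization, the median of all genes shifted to 0.158, with 4018 genes called higher and 1479 lower in place of 2489 and 2502, and Timp2 (-0.13, adjusted p = 0.265) and Mmp11 (-0.37, adjusted p = 0.108) were not called. Calls rest on limma with a Benjamini-Hochberg adjusted p below 0.05, and changes are log2 changes ± SE of normalized values with n = 2 arrays a group. In RNA of a whole sample, fewer cells of a type and less RNA per cell cannot be told apart.

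Timp1, the inhibitor best known as a secreted response to injury and cytokines, had the largest change of the 8 tested members. Its signals were 649 and 744 with U0126 added and 3507 and 3073 with SB202190 added. They were 3094 and 3252 with FGF2 alone, against 936 and 1041 with vehicle. The FGF2 arrays and the SB202190 arrays overlapped and stood far above the others, and both U0126 arrays lay below both vehicle arrays. FGF2 raised Timp1 by 1.62 ± 0.08 (adjusted p = 8.36e-09), which is 3.08-fold. U0126 changed it by -2.165 ± 0.08 against FGF2 (adjusted p = 2.57e-09) and by -0.54 ± 0.08 against vehicle (adjusted p = 1.61e-04), which was -0.30 with median centring (adjusted p = 0.0386). Against FGF2 alone, SB202190 gave 0.04 ± 0.08, with a 95% interval of -0.13 to 0.21 (adjusted p = 0.859).

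Mmp3, stromelysin-1, which cuts many matrix proteins and activates other Mmp precursors, also rose with FGF2 and was lower when U0126 was added. Its signals were 527 and 559 with U0126 added and 1234 and 1338 with SB202190 added. They were 936 and 1025 with FGF2 alone, against 520 and 537 with vehicle. The U0126 and vehicle arrays overlapped, the FGF2 arrays lay above them, and both SB202190 arrays were higher still. FGF2 raised Mmp3 by 0.86 ± 0.07 (adjusted p = 1.22e-06). U0126 lowered it against FGF2, with a change of -0.85 ± 0.07 (adjusted p = 4.56e-06), to a level that differed from vehicle by 0.01 ± 0.07, with a 95% interval of -0.15 to 0.17 (adjusted p = 0.954). SB202190 raised it against FGF2 by 0.38 ± 0.07 (adjusted p = 0.0148), a call that was lost without replicate 1 of FGF2 (0.32, adjusted p = 0.149), without replicate 2 of FGF2 (0.44, adjusted p = 0.0617) and without replicate 2 of FGF2 with SB202190 (0.32, adjusted p = 0.169).

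Timp4, an inhibitor found chiefly in brain and heart, was highest with FGF2 alone. With U0126 its signals were 376.4 and 362.7, and with SB202190 they were 301.5 and 333.6. With FGF2 alone they were 429.8 and 476.7, against 304.8 and 326.3 with vehicle. The FGF2 arrays did not overlap any other group, and the SB202190 arrays lay on the level of vehicle. FGF2 raised Timp4 by 0.52 ± 0.09 (adjusted p = 7.23e-04). Against FGF2, U0126 changed it by -0.31 ± 0.09 (adjusted p = 0.0333) and SB202190 by -0.51 ± 0.09 (adjusted p = 0.0124). The U0126 call was lost when either array of FGF2 or of FGF2 with U0126 was left out (adjusted p = 0.0517 to 0.238). The SB202190 call was lost without replicate 1 of FGF2 (0.0561), replicate 2 of FGF2 (0.138) and replicate 1 of FGF2 with SB202190 (0.0779), all adjusted p. The second probe set of Timp4 had 192 and 208 with FGF2, against 146 and 128 with vehicle, and was called higher too (0.58, adjusted p = 0.00302 over all probe sets). Against FGF2 it was called lower with U0126 (-0.49, adjusted p = 0.0170) but not with SB202190 (-0.40, adjusted p = 0.126), and its means of 143.9 with U0126 and 151 with SB202190 lay in the opposite order to those of the brighter probe set.

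**Figure D1:**
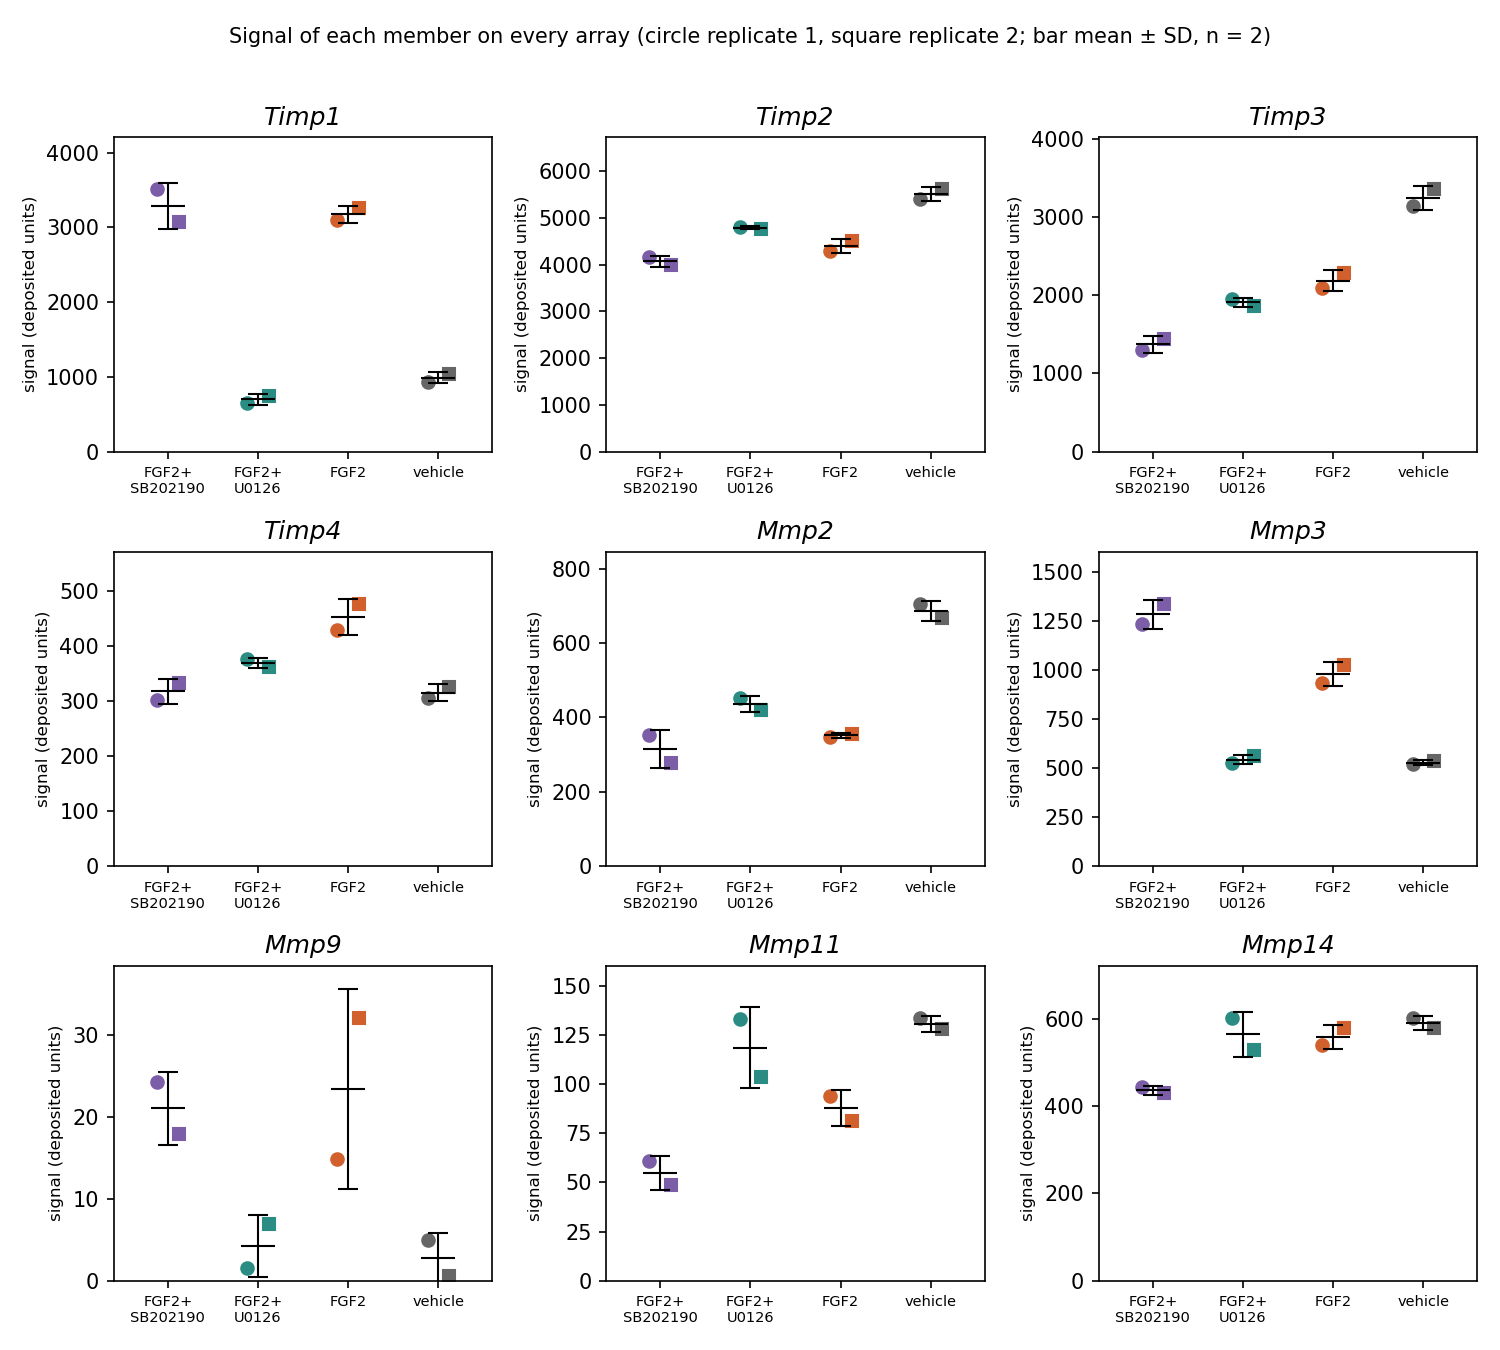
Deposited signal (linear axis from 0) of the probe set representing each of 9 genes, in the groups FGF2 with SB202190, FGF2 with U0126, FGF2 and vehicle. Circles are replicate 1, squares replicate 2, and bars the mean ± SD of 2 arrays. Timp1 and Mmp3 were high with FGF2 and with SB202190 added and low with U0126 added and with vehicle, while Timp2, Timp3 and Mmp2 were highest with vehicle.

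Timp3, the inhibitor that stays bound to the extracellular matrix, fell with FGF2 and fell further when SB202190 was added. Its signals were 1953 and 1866 with U0126 and 1298 and 1447 with SB202190. They were 2091 and 2288 with FGF2 alone, against 3143 and 3356 with vehicle. No groups overlapped, and both SB202190 arrays lay below all other arrays. The change was -0.68 ± 0.07 between FGF2 and vehicle (adjusted p = 3.87e-06), and with median centring it was -0.37 (adjusted p = 0.0027). Between SB202190 and FGF2 it was -0.65 ± 0.07 (adjusted p = 2.56e-04), and between SB202190 and vehicle -1.33 ± 0.07 (adjusted p = 8.21e-09). U0126 and FGF2 were neighbours that the test did not separate, at -0.17 ± 0.07 (adjusted p = 0.0922).

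All 4 probe sets of Timp3 were called lower with FGF2, at -0.56 to -0.76, and lower with SB202190 than with FGF2 alone, at -0.53 to -0.65. None of the 4 was called between U0126 and FGF2, where 3 had negative changes and 1 a positive one. That probe set had 2126 and 1960 with U0126 added, against 1721 and 1994 with FGF2 (0.16, adjusted p = 0.142).

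Timp2, the inhibitor that bridges Mmp2 to Mmp14, fell with FGF2 by 0.54 ± 0.05 (adjusted p = 9.52e-07). U0126 gave signals of 4817 and 4768, and SB202190 gave 4158 and 3988. FGF2 alone gave 4296 and 4501, against 5401 and 5612 with vehicle. The U0126 arrays lay between those of FGF2 and vehicle without overlap. The change with U0126 against FGF2 was 0.20 ± 0.05 (adjusted p = 0.00603) and against vehicle -0.34 ± 0.05 (adjusted p = 7.96e-05). With median centring neither was called, at 0.13 against FGF2 (adjusted p = 0.313) and 0.01 against vehicle (adjusted p = 0.957). With no normalization between arrays the changes of -0.32 between FGF2 and vehicle and -0.20 between U0126 and vehicle were called, and that of 0.12 between U0126 and FGF2 was not (adjusted p = 0.142). With SB202190 it was -0.06 ± 0.05 against FGF2 (adjusted p = 0.542).

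The probe sets of Timp2 disagreed on the inhibitors. Of its 6 probe sets 5 passed the filter, and all 5 were called lower with FGF2, at -0.38 to -0.62. Between U0126 and FGF2, 3 of the 5 were called higher and 2 were not called. Between SB202190 and FGF2, 1450040_at alone was called. It had 949 and 823 with SB202190, against 1291 and 1305 with FGF2 (-0.56, adjusted p = 0.00195), while the other 4 had changes of -0.06 to 0.13. The sixth, 1437081_at, had signals of 0.716 to 11.9 on all arrays. With the mean of all 6 probe sets, which counts the dark one equally, Timp2 was not called between FGF2 and vehicle (-0.23, adjusted p = 0.145) or between U0126 and FGF2 (-0.03, adjusted p = 0.875).

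Counted by probe set, 19 of the 22 passed the filter. With FGF2, 4 were called higher and 13 lower than with vehicle, where 16% of all probe sets were called higher and 14.4% lower. Between U0126 and FGF2 there were 5 higher and 4 lower, beside 7.9% and 8.39% of all. Between SB202190 and FGF2 there were 1 higher and 6 lower, beside 0.972% and 0.935%. Between U0126 and SB202190 there were 13 higher and 2 lower, beside 8.2% and 8.46%. Probe sets of 1 gene are not independent of each other.

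**Figure D2:**
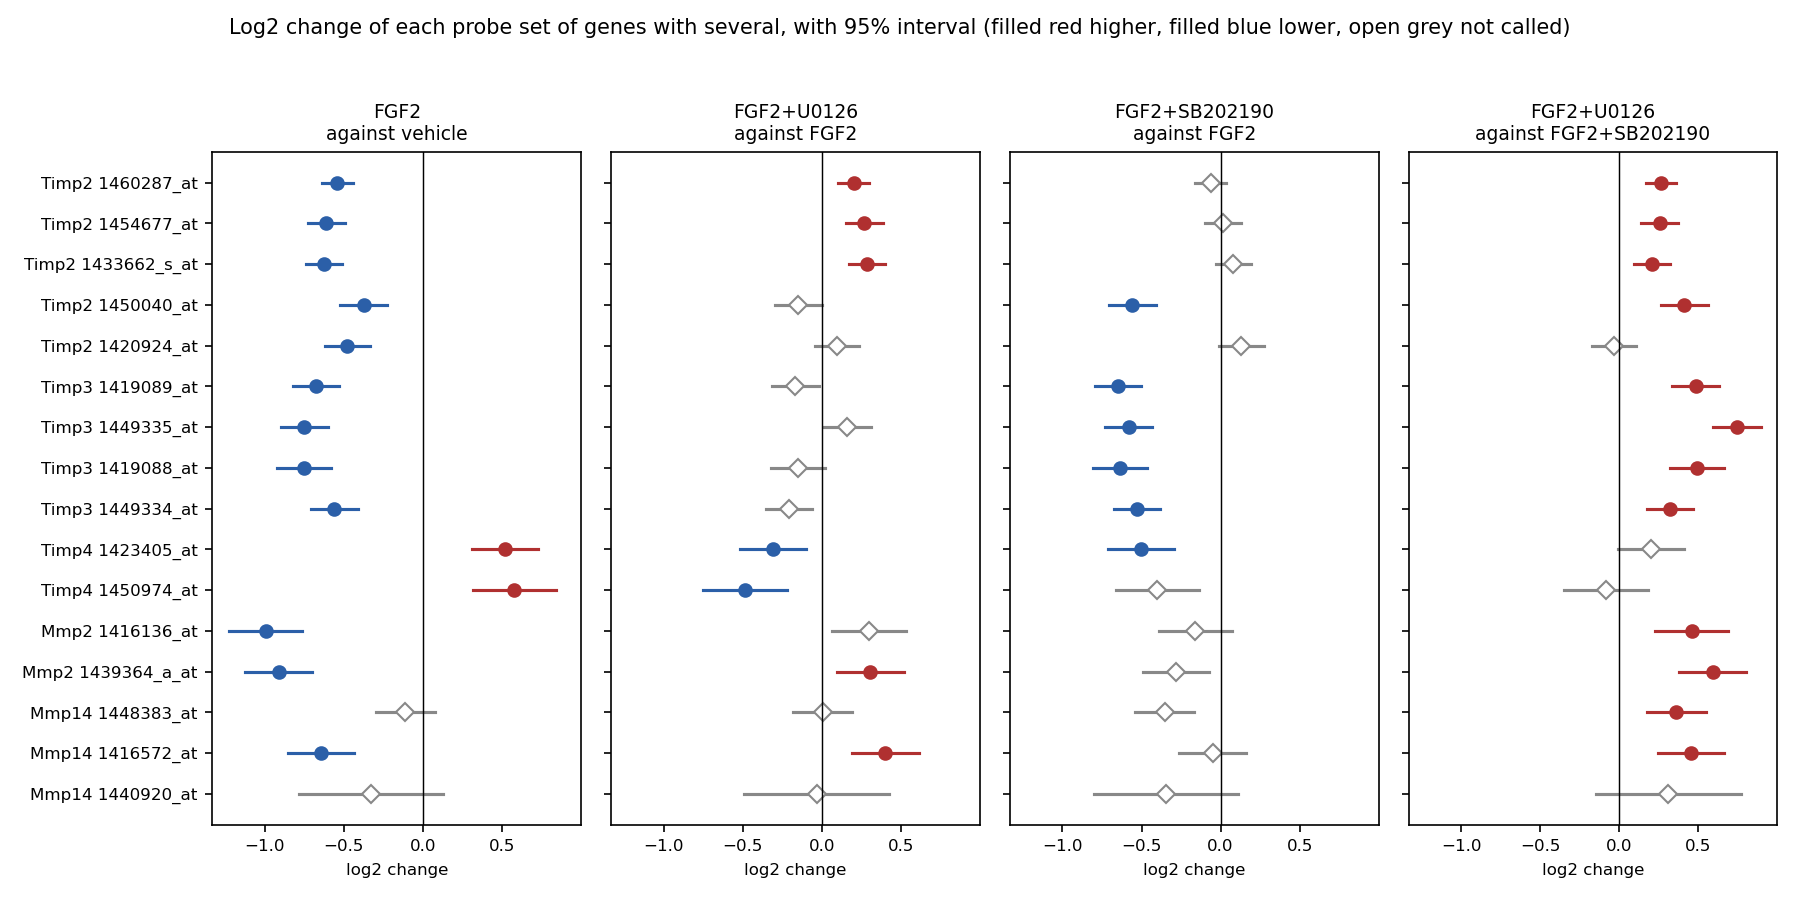
Log2 change with its 95% interval (horizontal axis) of every probe set above the filter for Timp2, Timp3, Timp4, Mmp2 and Mmp14, fitted over all 27061 probe sets above the filter, in 4 comparisons. Filled points were called higher (red) or lower (blue) and open grey points were not called. The 4 probe sets of Timp3 moved alike with FGF2 and with SB202190, while 1 of 5 of Timp2 stood apart with SB202190. Of the 3 of Mmp14, 1 was called lower with FGF2 and the others were not called.

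Mmp2, gelatinase A, which cuts basement membrane collagen, had the largest decrease with FGF2. With U0126 its signals were 451 and 420.0, and with SB202190 they were 352 and 279. With FGF2 alone they were 346 and 356, against 705 and 667 with vehicle. All arrays with FGF2 lay below the vehicle arrays, whichever inhibitor was added. The change was -0.995 ± 0.105 between FGF2 and vehicle (adjusted p = 7.36e-06), -0.70 ± 0.105 between U0126 and vehicle (adjusted p = 2.16e-04, and -0.45 with median centring) and -1.15 ± 0.105 between SB202190 and vehicle (adjusted p = 1.79e-06). Between U0126 and FGF2 the change of 0.30 ± 0.105 was not called (adjusted p = 0.0588). It was called in 6 of 21 alternative settings, and the second probe set was called higher there (0.31, adjusted p = 0.0486).

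Mmp14, the membrane protease that activates the Mmp2 precursor, gave different answers by probe set. The brightest, 1448383_at, had 539 and 578 with FGF2, against 601 and 579 with vehicle, and was not called (-0.11 ± 0.08, adjusted p = 0.336). Another, 1416572_at, had 242 and 221 with FGF2, against 368 and 361 with vehicle, a change of -0.65 (adjusted p = 2.61e-04 over all probe sets). With U0126 added, that probe set had 320.1 and 304.0, and it was called higher than with FGF2 alone (0.40, adjusted p = 0.0139). With SB202190 added it had 234.0 and 217.3 and was not called against FGF2 alone (-0.05, adjusted p = 0.873). The brightest had 443 and 429 with SB202190, against 539 and 578 with FGF2 (-0.35 ± 0.08, adjusted p = 0.0418), a call that was lost under 11 of 21 alternatives, among them each that left out an SB202190, FGF2 or vehicle array (adjusted p = 0.056 to 0.265). The third, 1440920_at, had 41.1 to 74.9 on all arrays and was called only between SB202190 and vehicle (-0.67, adjusted p = 0.0294). The mean of the 3 probe sets was called lower with FGF2 (-0.36, adjusted p = 0.0142), so no direction is given for Mmp14 in that comparison. Between SB202190 and FGF2 the mean was not called (-0.25, adjusted p = 0.25), so the call there rests on the brightest probe set alone.

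Mmp11, stromelysin-3, a protease of remodelling tissue that is activated inside the cell, was dimmer. U0126 gave signals of 133 and 104, which overlapped vehicle, and SB202190 gave 60.9 and 48.7, below all other arrays. FGF2 alone gave 94.3 and 81.5, against 134 and 128 with vehicle. FGF2 changed it by -0.53 ± 0.175 (adjusted p = 0.0295), a call that was lost without replicate 1 (0.0509) or 2 (0.164) of FGF2 and without replicate 1 (0.109) or 2 (0.0854) of vehicle, all adjusted p. The difference between SB202190 and vehicle was -1.19 ± 0.175 (adjusted p = 1.33e-04), and that between U0126 and SB202190 was 1.07 ± 0.175 (adjusted p = 7.18e-04). Against FGF2 alone neither inhibitor was called, with 0.41 for U0126 (adjusted p = 0.119) and -0.66 for SB202190 (adjusted p = 0.0611).

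Mmp9, gelatinase B, which is often induced with inflammation, lay near the bottom of the signal range. Its brighter probe set had 1.54 and 6.93 with U0126 and 24.2 and 17.9 with SB202190. It had 14.8 and 32.1 with FGF2 alone, against 4.90 and 0.52 with vehicle. The FGF2 and SB202190 arrays lay above the U0126 and vehicle arrays without overlap. The other probe set did not show this, with 3.17 and 3.51 with FGF2, against 10.9 and 6.01 with vehicle. With no filter on low signals the brighter one was called higher with FGF2 (2.75 ± 0.72, adjusted p = 0.0138), and its change of -2.08 ± 0.72 between U0126 and FGF2 was not called (adjusted p = 0.0804).

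The inhibitor comparisons share the FGF2 arrays with the comparison above, so their signs are not independent of it. Between U0126 and FGF2, 1 of 8 members was called higher (Timp2) and 3 lower (Timp1, Timp4 and Mmp3), where 11.6% of all genes were called higher and 10.5% lower. The member median was -0.08, beside 0.03 over all genes. Between SB202190 and FGF2, 1 was called higher (Mmp3) and 3 lower (Timp3, Timp4 and Mmp14), where 1.32% of all genes were called higher and 1.7% lower. The Mmp14 call rests on its brightest probe set alone, as given above. The medians between SB202190 and FGF2 were -0.26 for the members and -0.0048 for all genes. The Actb controls gave 3′ over 5′ signal ratios, a sign of RNA quality, of 1.28 and 1.26 with U0126, against 1.35 and 1.38 with FGF2, and their part in the U0126 result was not tested.

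Cell type markers moved with U0126 in both directions. Higher than with FGF2 alone were 7 of 10 astrocyte markers (sums of 16570 to 16860 with U0126, against 13420 to 13540 with FGF2) and 4 of 6 ependymal markers (sums of 2316 to 2363 with U0126, against 1564 to 1599 with FGF2), and limma called 0 of either lower (7 and 5 higher and 0 lower at an unadjusted p under 0.05). The lysosomal gene Cd68 was the single microglial marker of 5 tested that was called, at 0.94 ± 0.16 (adjusted p = 9.98e-04). Lower with U0126 were 2 of 6 tested neuronal markers, Tubb3 (-0.65, adjusted p = 0.0170) and Nefm (-0.90, adjusted p = 0.0252), with sums of 578.1 to 588 with U0126, against 737.6 to 759.9 with FGF2. Of 4 endothelial markers tested, Esam (-0.98, adjusted p = 0.00572) and Cdh5 (-0.96, adjusted p = 0.0300) were lower. Kdr (0.79, adjusted p = 0.122) and Vwf (0.52, adjusted p = 0.519) had positive changes that were not called. Endothelial sums were 137.3 to 169.3 with U0126, against 199.9 to 247 with FGF2, while the defining gene Pecam1 had 0.60 to 1.56 on all arrays. Of 3 oligodendrocyte markers Cnp was lower (-0.41, adjusted p = 2.54e-04). Cldn11 (1.88, adjusted p = 0.0709) and Mbp (0.21, adjusted p = 0.687) had positive changes that were not called. Oligodendrocyte sums, made up mostly of Cnp, were 1575 to 1593 with U0126, against 2068 to 2203 with FGF2, and the myelin gene Mog had 1.12 to 10.1 on all arrays. At an unadjusted p under 0.05, Kdr and Cldn11 were higher with U0126. Of 3 markers of oligodendrocyte precursors Pdgfra was lower (-0.93, adjusted p = 0.00119), with sums of 104 to 125 with U0126, against 172.2 to 191.1 with FGF2. Of 10 fibroblast and pericyte markers 1 was higher and 2 were lower, and the sums overlapped. The part of these cell types in the U0126 results for Timp1, Timp2, Timp4 and Mmp3 was not tested.

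With SB202190, 2 of 6 ependymal markers were lower than with FGF2 alone, namely Foxj1 (-0.70, adjusted p = 0.00149) and Cfap126 (-0.42, adjusted p = 0.00553), with sums of 1224 to 1257 with SB202190, against 1564 to 1599 with FGF2. At an unadjusted p under 0.05 these 2 were lower and the dim marker Tmem212 was higher (1.225, adjusted p = 0.235). Astrocyte markers had 2 of 10 lower, with sums of 13110 to 13290 with SB202190, against 13420 to 13540 with FGF2. At an unadjusted p under 0.05, 3 astrocyte markers were lower and 1 was higher (Glul, 0.28, adjusted p = 0.0584). Of the other lists limma called 0 markers, while at an unadjusted p under 0.05 it gave 5 fibroblast and pericyte markers lower, 1 neuronal marker higher and 1 lower, and 0 of the microglial, endothelial and both oligodendrocyte lists. Sums that were not overlapping were 12390 to 14020 with SB202190, against 14250 to 16950 with FGF2, for fibroblasts and pericytes, and 699.4 to 724.8 with SB202190, against 737.6 to 759.9 with FGF2, for neurons. The largest part of the fibroblast and pericyte sums was Igfbp2, which was not called (adjusted p = 0.205). It averaged 6959 ± 561 with SB202190, against 8650 ± 1600 with FGF2 (SD). Endothelial sums were 182.6 to 183.1 with SB202190, against 199.9 to 247 with FGF2. The part of these cell types in the SB202190 results for Timp3, Timp4, Mmp3 and Mmp14 was not tested.

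The inhibitor groups, both with FGF2, were then compared with each other. Timp1 and Mmp3 were lower with U0126 than with SB202190, with changes of -2.20 ± 0.08 (adjusted p = 2.17e-09) and -1.24 ± 0.07 (adjusted p = 2.19e-07). Timp2, Timp3, Mmp2, Mmp11 and Mmp14 were higher with U0126. The 2 and 5 calls of 8 stood beside 10.3% lower and 12.4% higher among all genes. Timp3 had 0.48 ± 0.07 (adjusted p = 1.90e-04) and Mmp2 0.46 ± 0.105 (adjusted p = 0.00686). The Timp2 call (0.26 ± 0.05, adjusted p = 0.00103) was lost with median centring (0.24, adjusted p = 0.0623) and with the mean of its probe sets (0.02, adjusted p = 0.919). Its probe set 1420924_at had -0.03 (adjusted p = 0.783), while its others above the filter were called higher. With a variance prior without trend, Timp2, Mmp2 and Mmp14 were not called (adjusted p = 0.0622, 0.0686 and 0.0618). The calls of Mmp2 and Mmp14 were lost without replicate 2 of SB202190 (adjusted p = 0.0848 and 0.0561) and without replicate 1 of U0126 (adjusted p = 0.0538 and 0.0768). Timp4 was not called, at 0.20 ± 0.09 with a 95% interval of -0.01 to 0.40 (adjusted p = 0.161). Between the same groups 7 of 10 astrocyte markers were higher and 1 lower with U0126, 5 of 6 ependymal markers were higher and 0 lower, and 2 of 6 neuronal markers were lower and 0 higher. Of 10 fibroblast and pericyte markers 3 were higher (Ogn, Col1a1 and Col1a2) and 1 was lower (Lum). Among the other lists the microglial marker Cd68 was higher and Cnp, Pdgfra and Esam were lower. The part of these cell types in these results was not tested.

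Against vehicle, 0 members were called higher with FGF2 and U0126 and 4 were lower, namely Timp1, Timp2, Timp3 and Mmp2, where 16.7% of all genes were called higher and 15% lower. At an unadjusted p under 0.05, Timp4 was the single member higher (0.21 ± 0.09, adjusted p = 0.11), and with median centring limma called it (adjusted p = 0.00361). With FGF2 and SB202190, 2 were higher (Timp1 and Mmp3) and 5 lower (Timp2, Timp3, Mmp2, Mmp11 and Mmp14), where 18% and 17.8% of all genes were. Timp1 was thus above vehicle under SB202190, at 1.66 ± 0.08 (adjusted p = 4.80e-09), and below it under U0126.

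**Figure D3:**
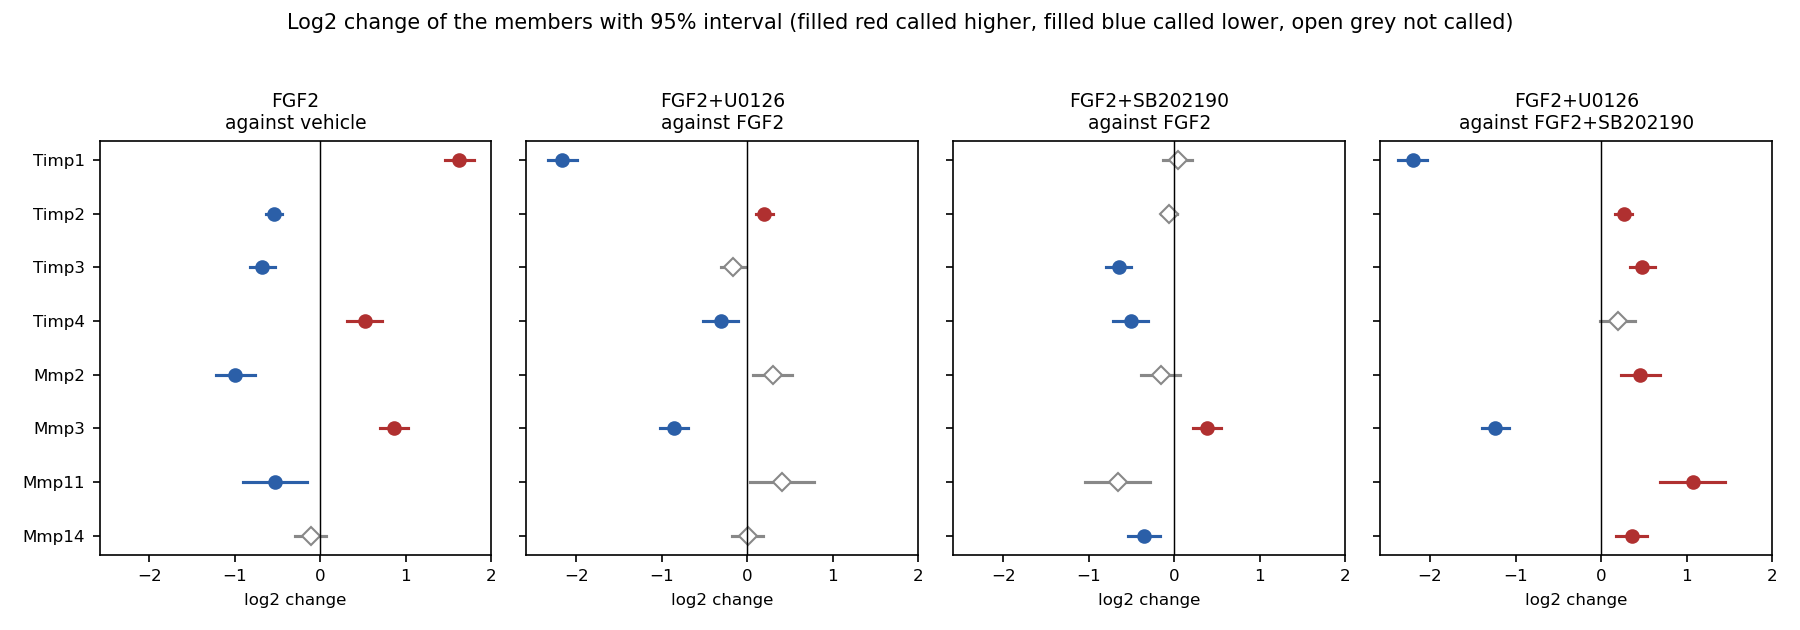
Log2 change with its 95% interval (horizontal axis) of the 8 members tested, in 4 comparisons with n = 2 arrays a group. Filled points were called higher (red) or lower (blue) and open grey points were not called. Timp1 and Mmp3 lie right of 0 with FGF2 against vehicle and left of 0 with U0126 against FGF2 and against SB202190.

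Markers of several cell types moved with FGF2 too, most of them lower. Of 12 listed genes of meningeal fibroblasts and pericytes 10 passed the filter, and 7 of these were lower with FGF2 and 0 higher. At an unadjusted p under 0.05 these counts were 7 and 0 as well. The summed signal of the 12 was 12390 to 14020 with SB202190 added, 14330 to 14590 with U0126 added and 14250 to 16950 with FGF2, against 19770 to 20630 with vehicle. Igfbp2, the largest part of these sums, averaged 8650 ± 1600 with FGF2, against 7755 ± 474 with vehicle (SD), and was not called (adjusted p = 0.852). None of the defining genes Col1a1, Col1a2, Col3a1, Dcn and Lum was near 0 on any array, with a lowest signal of 200.5 for Col1a1, while Slc6a13 and Anpep did not pass the filter and Slc6a13 was at 0.51 on 1 array. All 10 astrocyte markers were lower with FGF2 too, with sums of 13420 to 13540 with FGF2, against 24960 to 25210 with vehicle. The 6 ependymal markers were lower as well, with sums of 1564 to 1599 with FGF2, against 3825 to 3969 with vehicle. Of 3 oligodendrocyte markers 2 were lower, Cnp (-0.30, adjusted p = 0.00121) and Cldn11 (-2.56, adjusted p = 0.0102), with sums of 2068 to 2203 with FGF2, against 2483 to 2609 with vehicle.

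Markers of the other cell types moved in both directions with FGF2 or were not called. The neuronal markers Tubb3 (1.28, adjusted p = 6.69e-05) and Nefm (0.84, adjusted p = 0.0215) were higher and Map2 was lower (-0.31, adjusted p = 0.00824), with sums of 737.6 to 759.9 with FGF2, against 783.3 to 790.1 with vehicle. Among the endothelial markers Esam was higher (1.84, adjusted p = 2.05e-05) and Kdr lower (-1.72, adjusted p = 0.00133), and the sums overlapped. Limma called 0 of 5 microglial markers (1 higher and 2 lower at an unadjusted p under 0.05) and 0 of 3 precursor markers (also 0 at an unadjusted p under 0.05). Microglial sums were 341.4 to 368.4 with FGF2, against 343.6 to 412.9 with vehicle, and overlapped, as did those of the precursors. The part of these cell types in the FGF2 results of the members was not tested.

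Genes whose profile over the 8 arrays was most like that of a member were found by Pearson r on the normalized log2 scale, as a description, since the 8 arrays fall into 4 groups. Closest to Mmp3 were Map3k3 (r = 0.996), a kinase upstream of MAP kinases, the Wnt receptor Fzd7 (0.989) and the spermine oxidase Smox (0.988). Closest to Timp1 were Pttg1ip, Arrdc4 and the protocadherin Pcdh9, with r of 0.990, 0.988 and 0.988. The mean signal of Pcdh9 was 129 with U0126, 369 with SB202190 and 346 with FGF2 alone, against 183 with vehicle. Closest to Mmp2 was the collagen gene Col1a1 (r = 0.998), which averaged 269 ± 1.64 with FGF2, against 703.5 ± 55.2 with vehicle (SD, n = 2), followed by Apoe (0.995) and the glypican Gpc6 (0.994). For Apoe the likeness was not seen in the deposited signals, which averaged 8028 with SB202190, 8575 with U0126 and 9038 ± 818 with FGF2, against 9111 ± 62.9 with vehicle (SD, n = 2). For Timp3 these were the transporter Slco1a5 (0.996), Paqr8 (0.985) and the cadherin Cdh19 (0.984). For Timp2 they were the sorting receptor Sorl1 (0.997), Spag6l (0.997) and Selenbp1 (0.996). For Timp4 they were the transcriptional inhibitor Id1 (0.963), the protein C receptor Procr (0.950) and the endocytic scaffold Itsn2 (0.938), and for Mmp11 they were Kpna7, Camk4 and Enkur (0.978, 0.967 and 0.9655).

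Other genes of the proteolytic system were taken from 5 lists, and the text names up to 4 called genes of each by smallest p. Mean signals of these genes are given ± SD, and their changes ± SE. Of all genes tested, 18.9% were called higher and 19% lower with FGF2 against vehicle. Against FGF2 these shares were 11.6% and 10.5% with U0126 and 1.32% and 1.7% with SB202190. They stand beside all list counts below, and counts on lists this short are not read as results about a family. Of 17 other Mmps on the list 13 had a probe set and 5 passed the filter. With FGF2, 2 of these 5 fell and 0 rose, as at an unadjusted p under 0.05. Mmp23 averaged 44.2 ± 1.9 with FGF2, against 99.7 ± 21.7 with vehicle (-1.05 ± 0.23, adjusted p = 0.00237), and Mmp16, a membrane-bound relative of Mmp14, averaged 58.95 ± 8.18 with FGF2, against 91.2 ± 1.29 with vehicle (-0.54 ± 0.20, adjusted p = 0.0446). The median of the 5 was -0.21. Neither inhibitor moved any of the 5 past the test against FGF2, where at an unadjusted p under 0.05 there were 0 with U0126 and 2 lower with SB202190. ADAMs, membrane proteases that shed receptors and ligands, had 1 higher and 2 lower of 10 with FGF2 and a median of -0.02. Adam10, which cleaves Notch and the amyloid precursor protein, had -0.36 ± 0.08 (adjusted p = 0.00224), Adam12 -0.73 ± 0.20 (adjusted p = 0.012) and Adam15 0.44 ± 0.15 (adjusted p = 0.0352). With U0126, Adam12 fell further, by 0.80 ± 0.20 (adjusted p = 0.0128), and Adam9 fell by 0.24 ± 0.07 (adjusted p = 0.0225).

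ADAMTS proteases, which are secreted and include the enzymes that cut aggrecan-type proteoglycans, had 5 lower and 1 higher of 12 tested with FGF2 and a median of -0.42. Adamts20 averaged 7.49 ± 5.76 with FGF2, below the array medians, against 65.3 ± 24.9 with vehicle (-2.86 ± 0.54, adjusted p = 9.02e-04). Adamts5 had a change of -0.67 ± 0.175 (adjusted p = 0.00855) and Adamts1 one of -0.41 ± 0.12 (adjusted p = 0.0146). Adamts15 had one of -1.34 ± 0.43 (adjusted p = 0.0246). Adamts16, called higher and named after its values were seen, averaged 20.9 ± 0.0973 with FGF2, against 8.11 ± 8.19 with vehicle, so its change rests on low signals. Against FGF2 neither inhibitor changed any of the 12 past the test, with 1 higher under U0126 and 3 lower under SB202190 at an unadjusted p under 0.05.

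Of 18 tested genes that activate, restrain or partner Mmps, 3 rose and 8 fell with FGF2, with a median of -0.29. Those that rose were Cd44, a cell surface docking site of Mmp9, by 0.99 ± 0.06 (adjusted p = 4.34e-08), the plasminogen activator Plat by 0.66 ± 0.06 (adjusted p = 2.69e-06) and the proprotein convertase Pcsk6 by 0.85 ± 0.13 (adjusted p = 1.97e-04). Among those that fell were the broad protease inhibitor A2m at -1.43 ± 0.13 (adjusted p = 1.86e-06), Pcolce, an enhancer of procollagen processing, at -1.24 ± 0.08 (adjusted p = 6.78e-08) and the membrane-anchored Mmp inhibitor Reck at -0.80 ± 0.12 (adjusted p = 1.47e-04). Pcsk6 and Reck were named here after their values were seen. With U0126, 5 fell and 1 rose against FGF2. Plat fell to 1658 ± 0.118 with U0126 added, against 3171 ± 125 with FGF2 (-0.89 ± 0.06, adjusted p = 6.56e-07), Pcsk6 by 1.15 ± 0.13 (adjusted p = 5.16e-05) and Cd44 by 0.40 ± 0.06 (adjusted p = 3.24e-04), while Pcolce rose by 0.39 ± 0.08 (adjusted p = 0.00271). With SB202190, 1 rose and 1 fell: Plat had 4344 ± 287 with SB202190 added, against 3171 ± 125 with FGF2 (0.46 ± 0.06, adjusted p = 0.00193), and the cathepsin Ctsl had -0.20 ± 0.05 (adjusted p = 0.049).

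Of 23 tested matrix and basement membrane substrates 4 rose and 10 fell with FGF2, with a median of -0.24. Those that rose were tenascin-C (Tnc) by 1.73 ± 0.10 (adjusted p = 2.88e-08), fibronectin (Fn1) by 0.71 ± 0.08 (adjusted p = 1.72e-05), the laminin chain Lamb1 by 0.78 ± 0.09 (adjusted p = 2.49e-05) and neurocan (Ncan) by 0.81 ± 0.15 (adjusted p = 8.07e-04), of which Fn1, Lamb1 and Ncan were named after their values were seen. The collagen gene Col1a2 had -1.145 ± 0.08 (adjusted p = 2.36e-07), Nid2, a basement membrane linker, -1.41 ± 0.13 (adjusted p = 1.76e-06) and Col1a1 -1.405 ± 0.135 (adjusted p = 3.23e-06). Of the 10 that fell, Col1a1, Col1a2 and Col3a1 are also on the fibroblast list above. With U0126, 6 fell and 0 rose against FGF2, among them Tnc by 1.10 ± 0.10 (adjusted p = 4.93e-06), Ncan by 0.97 ± 0.15 (adjusted p = 5.04e-04), the basement membrane linker Nid1 by 0.68 ± 0.11 (adjusted p = 6.36e-04) and Fn1 by 0.50 ± 0.08 (adjusted p = 8.51e-04). At an unadjusted p under 0.05, 5 of the 23 were higher and 7 lower. With SB202190 the laminin chain Lama4 alone was called, at -0.63 ± 0.15 (adjusted p = 0.0423).

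**Figure D4:**
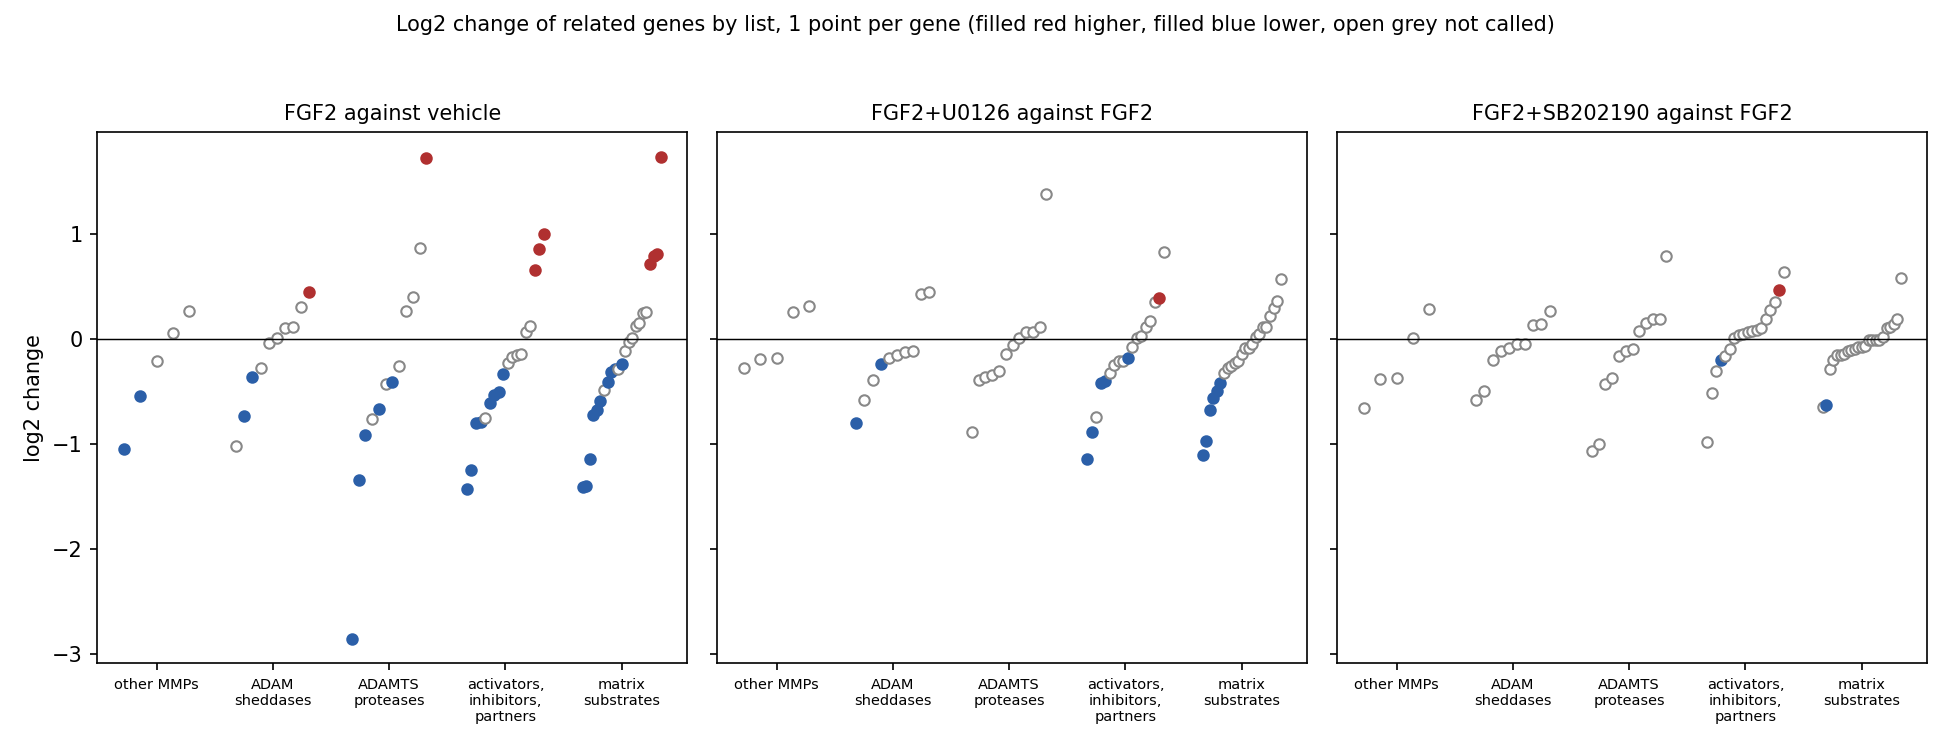
Log2 change (vertical axis) of each tested gene on 5 lists, 1 point per gene, in 3 comparisons with n = 2 arrays a group. Filled points were called higher (red) or lower (blue) and open grey points were not called. With FGF2 the lists hold calls in both directions except the other Mmps, where 2 of 5 were lower, and SB202190 against FGF2 has 3 calls in all. Of all genes tested, 18.9% were called higher and 19% lower with FGF2.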

How the data were processed

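Expression was measured on 8 arrays of mouse RNA, in 4 groups of 2 by their labels. The deposited values are linear intensities per probe set. How probe set intensities were summarised is not given in the sources used here; after trimming 2% at each end the mean of every deposited array was 150.001, so the arrays had been scaled alike. Of all probe sets 34958 carry 1 gene symbol in GEO's platform annotation, 932 several and 9211 none; the first were used. Values were taken as log2(value + 1.77), the 10th percentile of all values, so changes of dim genes are understated, and quantile normalized. Of 18194 genes, those with a mean of at least log2 3.83 (the 40th percentile) were kept, 13174 in all. The 6 comparisons came from 1 limma fit (limma 3.58.1, R 4.3.3) with eBayes, trend and 4 residual degrees of freedom, Benjamini-Hochberg adjusted within each comparison. Figures used matplotlib 3.10.9.

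Members, lists and tests were chosen with earlier results of these data known. Named were all members and their probe sets, from each list and comparison up to 4 called genes by smallest p, and the 3 genes most like each member called between FGF2 and vehicle. On simulated data for FGF2 against vehicle (13221 genes), 35.4% of 48 changes of 1.5-fold, 56.5% of 46 of 2-fold and 84% of 50 of 4-fold were recovered, and 5 of 90 calls were false. Far fewer genes were changed there than the 4991 called in the data, so these rates may not carry over. Same-numbered replicates did not deviate together over the genes tested. With 2 arrays a group this cannot show whether the numbers pair samples, and the main fit did not pair them. In all 21 alternatives were tried for normalization, pseudocount, filter, probe set choice, variance prior, block and left-out arrays.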

Additional observations from a re-analysis of the deposited data

How the results depend on the processing

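Of 48 member results (8 genes in 6 comparisons) 33 were called, and 19 of these kept their call and direction under all 21 alternatives, among them Timp1 and Mmp3 with FGF2 against vehicle, U0126 against FGF2 and U0126 against SB202190. The other 14 lost the call under at least 1, and 4 of 15 uncalled results gained one. Between U0126 and FGF2, the members called numbered 2 with median centring and 2 with a variance prior without trend, in place of 4. Between SB202190 and FGF2 that prior left 0 of 4 members and 0 of all genes called by limma (5 members and 1819 genes at an unadjusted p under 0.05), and between U0126 and SB202190 it left 4 of 7. Leaving out 1 array gave 1 to 4 members between SB202190 and FGF2 (1 without either FGF2 array, 2 without either SB202190 array), and 6 to 7 between FGF2 and vehicle. Timp2 turned to -0.0342 between U0126 and FGF2 with the mean of its probe sets, where a dark probe set counts equally. It turned to 0.00799 between U0126 and vehicle with median centring, which moved the median of all genes there from 0.0136 to 0.188. The causes of these turns were not tested. Over all genes, the count between U0126 and FGF2 fell to 1619 without trend, 1782 with the mean of probe sets and 1849 and 1782 without FGF2 replicate 1 and 2, against 2916 as reported. Between SB202190 and FGF2 it was 235 with median centring, 170 with the mean, 97 without SB202190 replicate 2 and 83 and 82 without FGF2 replicate 1 and 2, against 398. Between U0126 and SB202190 it was 1735 without trend, 1783 with the mean and 1805 without SB202190 replicate 2, against 2986. With median centring, 4030 genes were called higher and 1014 lower between U0126 and vehicle, against 2196 and 1981 as reported, and 4059 and 1437 between SB202190 and vehicle, against 2377 and 2345. With the replicate number as a replicate block the members called numbered 7 between FGF2 and vehicle, 5 between U0126 and FGF2, 5 between SB202190 and FGF2, 7 between U0126 and SB202190, 4 between U0126 and vehicle and 7 between SB202190 and vehicle, adding Mmp2 with U0126 and Mmp11 with SB202190, both against FGF2; same-numbered deviations correlated with r of -0.0258 to 0.0337. Where an array was left out, the lone sample was assumed to vary like the other groups. Signals near or below the array medians, as for Mmp9, limit what these arrays can separate.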
